A study of Homo sapiens with 9 samples.

Results

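The EGF receptor family and its ligands were followed in U87MG, an established human glioblastoma cell line, and in a pair of temozolomide-resistant lines derived from it. Temozolomide alkylates DNA and is part of standard glioblastoma treatment. R50 cells were grown without interruption in 50 µM of the drug, R50_OFF cells had been exposed to 50 µM and released from it after 2 months, and parent cells are the line from which both came. Each group held 3 libraries. The submitters describe both resistant lines as clonal and raised in their own laboratory, so each stands for 1 line. Nothing states that replicates came from separate cultures, so the p-values reflect the spread among these particular libraries, part of which may be technical. Members were the 10 rows of the deposited table, of 33264 genes in all, whose Ensembl identifier belongs to EGFR, ERBB2, ERBB3, EREG, AREG, HBEGF, TGFA, BTC, NRG1 or EGF. Values are a normalized signal per kilobase of transcript, each ± is an SD over 3 libraries, and each log2 change was computed on log2(value + 1) and tested with limma over 16456 genes, with an adjusted p under 0.05 as the threshold. In all, 9 of the 10 members were tested, and AREG fell below the minimum level.

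The receptors of this family are tyrosine kinases that pair on binding a ligand and signal through the RAS-ERK, PI3K-AKT and STAT pathways. EGFR binds EGF, TGFA, AREG, EREG, HBEGF and BTC, ERBB3 binds neuregulins and has a weak kinase of its own, and ERBB2 has no known soluble ligand and serves as a partner. The ligands are made as membrane-anchored precursors that metalloproteinases such as ADAM17 and ADAM10 cut free, and cells can respond to the ligands that they release themselves. EGFR is often amplified or mutated in glioblastoma.

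On the build hg38, EGFR (ENSG00000146648) spans chr7:55019017-55211628 on the plus strand. ERBB2 (ENSG00000141736) lies at chr17:39687914-39730426 on the plus strand and ERBB3 (ENSG00000065361) at chr12:56076799-56103505 on the plus strand. Among the ligands, 3 genes share a stretch of chromosome 4. They are EREG (ENSG00000124882) at chr4:74365145-74388749 on the plus strand, AREG (ENSG00000109321) at chr4:74445136-74455005 on the plus strand and BTC (ENSG00000174808) at chr4:74744759-74794523 on the minus strand. The AREG and EREG starts are 80.0 kb apart, and the BTC start is 429.4 kb from that of EREG. EGF (ENSG00000138798) lies elsewhere on that chromosome, at chr4:109912883-110013766 on the plus strand. HBEGF (ENSG00000113070) is at chr5:140332843-140346603 on the minus strand and TGFA (ENSG00000163235) at chr2:70447284-70554193 on the minus strand.

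The promoter windows of EREG, its neighbour AREG, TGFA, HBEGF and EGFR are given. Each runs 5′ to 3′ on the strand of the gene, from 250 bases before to 50 bases after a RefSeq start site on GRCh38.p14. Such windows of 8 of the 10 members were searched. Capitals mark matches on either strand to 4 motifs searched by their letters, AP-1 (TGANTCA), the cAMP response element CRE (TGACGTCA), TEAD (GGAATG) and SP1 (GGGCGG).
EREG promoter, chr4:74364895-74365194, plus strand: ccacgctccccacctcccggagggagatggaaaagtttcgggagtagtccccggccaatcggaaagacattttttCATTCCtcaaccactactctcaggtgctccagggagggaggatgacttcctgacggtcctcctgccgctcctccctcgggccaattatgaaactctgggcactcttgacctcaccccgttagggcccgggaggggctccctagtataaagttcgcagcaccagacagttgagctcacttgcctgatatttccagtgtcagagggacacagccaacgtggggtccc
AREG promoter, chr4:74444886-74445185, plus strand: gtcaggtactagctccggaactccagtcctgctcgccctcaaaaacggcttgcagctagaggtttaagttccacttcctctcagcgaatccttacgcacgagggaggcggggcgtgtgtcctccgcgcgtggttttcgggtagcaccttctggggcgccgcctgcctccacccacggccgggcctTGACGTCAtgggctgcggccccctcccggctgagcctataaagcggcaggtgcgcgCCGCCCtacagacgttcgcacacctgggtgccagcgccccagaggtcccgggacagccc
TGFA promoter, chr2:70553777-70554076, minus strand: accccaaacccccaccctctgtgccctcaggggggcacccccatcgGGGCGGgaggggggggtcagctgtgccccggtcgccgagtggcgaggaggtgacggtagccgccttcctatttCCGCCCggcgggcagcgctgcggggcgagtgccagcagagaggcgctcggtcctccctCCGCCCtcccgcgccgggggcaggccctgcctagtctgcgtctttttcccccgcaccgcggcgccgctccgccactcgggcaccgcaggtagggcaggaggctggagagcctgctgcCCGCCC
HBEGF promoter, chr5:140346554-140346853, minus strand: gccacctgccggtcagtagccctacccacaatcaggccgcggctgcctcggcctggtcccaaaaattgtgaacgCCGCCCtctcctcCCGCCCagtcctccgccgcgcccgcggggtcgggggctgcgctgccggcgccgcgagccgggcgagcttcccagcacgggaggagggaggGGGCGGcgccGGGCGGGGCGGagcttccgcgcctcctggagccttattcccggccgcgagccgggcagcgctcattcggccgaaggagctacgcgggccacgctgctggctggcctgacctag
EGFR promoter, chr7:55018767-55019066, plus strand: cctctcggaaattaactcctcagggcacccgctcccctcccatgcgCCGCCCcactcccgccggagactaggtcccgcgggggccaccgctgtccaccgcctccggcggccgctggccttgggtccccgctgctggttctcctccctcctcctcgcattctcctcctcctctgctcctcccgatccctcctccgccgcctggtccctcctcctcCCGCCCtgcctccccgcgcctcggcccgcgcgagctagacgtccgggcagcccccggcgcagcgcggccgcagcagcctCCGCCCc

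The EREG window held 1 TEAD match, at position -175 from the start site, and no match to the other 3 motifs. The AREG window held 1 CRE match at -65 and 1 SP1 match at -9. The TGFA window held 4 SP1 matches, the HBEGF window 5 and the EGFR window 3, with none of the other motifs in these 3 windows. EGFR and TGFA each had a second RefSeq window that is not printed. In that window EGFR held 2 AP-1 matches, 1 TEAD match and no SP1 match, and TGFA held no match. The other windows searched are not printed either. There ERBB2 held 1 AP-1 match at -222, BTC 1 SP1 match at 23, and EGF 1 AP-1 match at -17 and 1 TEAD match at -12. Of 34796 promoter windows of the same length, 7.73% held the AP-1 letters, 1.84% the CRE, 14% the TEAD and 44.9% the SP1 letters. A match is a run of letters, and binding was not measured.

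The libraries held 28.7 to 35.8 M traced reads, and 22904 to 24892 genes lay above 0. Replicates differed by more than sampling noise, since the chi-square per gene between libraries of a group was 2.28 to 16.23. R50 replicate 2 stood apart, at 13.45 against replicate 1 and 16.23 against replicate 3, beside 4.28 between replicates 1 and 3. Without it the same numbers of members passed, 7, 6 and 7 in the 3 comparisons. Of 6 astrocyte and glioma markers, VIM averaged 169905 in R50, 238829 in R50_OFF and 269499 in parent cells and CD44 48496, 75155 and 70283, while NES lay between 20.7 and 65.2, OLIG2 between 16.7 and 75.4 and GFAP between 2.67 and 6.01. SOX2 averaged 39.5 in R50 and 24.7 in R50_OFF cells and was at 0 in all parent libraries. The leukocyte marker PTPRC averaged below 1 in every group, whereas the endothelial marker PECAM1 averaged 236 in R50, 130.1 in R50_OFF and 352 in parent cells. The epithelial marker KRT18 averaged 72.1 in R50, 108 in R50_OFF and 7.58 in parent cells, with EPCAM at 10.2, 29.1 and 33.4 and CDH1 at 2.87, 0.625 and 0.162. Of the neuronal markers, MAP2 averaged 1074 in R50, 954 in R50_OFF and 684 in parent cells, SYP 124, 135 and 70.2 and RBFOX3 3.12, 0 and 0, and the oligodendrocyte marker MBP and the leukocyte marker CD14 averaged 16.7 or less in every group. The endothelial marker CDH5 averaged 18.8 in R50, 0.179 in R50_OFF and 0.585 in parent cells, VWF 22.9, 18.5 and 9.56, and CD3E averaged below 1 in every group. The part of these shifts in the results below was not tested. Because RNA was pooled from whole cultures, fewer cells of a type and less RNA per cell cannot be told apart.

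Most of the family was lower in R50 cells than in parent cells, and the fall was led by the neuregulin NRG1 and the EGFR ligand EREG. In R50 against parent cells 6 members fell, 1 rose and 2 did not pass, where 31.7% of all tested genes fell and 31.6% rose. In R50_OFF against parent cells 6 members fell, none rose and 3 did not pass, where 25.7% of all tested genes fell and 26.3% rose. No member rose there at an unadjusted p under 0.05 in limma, or with voom on the traced reads, and 1, ERBB3, rose without parent replicate 1. In R50_OFF against R50 cells 6 members rose, 1 fell and 2 did not pass, where 30.2% of all tested genes rose and 29.3% fell. The median log2 change of the 9 tested members was -1.17 in R50 and -0.35 in R50_OFF against parent cells, and 0.66 in R50_OFF against R50 cells. Over all tested genes the medians were 0.02, 0.00 and 0.00. Both resistant lines were set against the same 3 parent libraries, so the first 2 comparisons are not independent of each other.

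**Figure D1:**
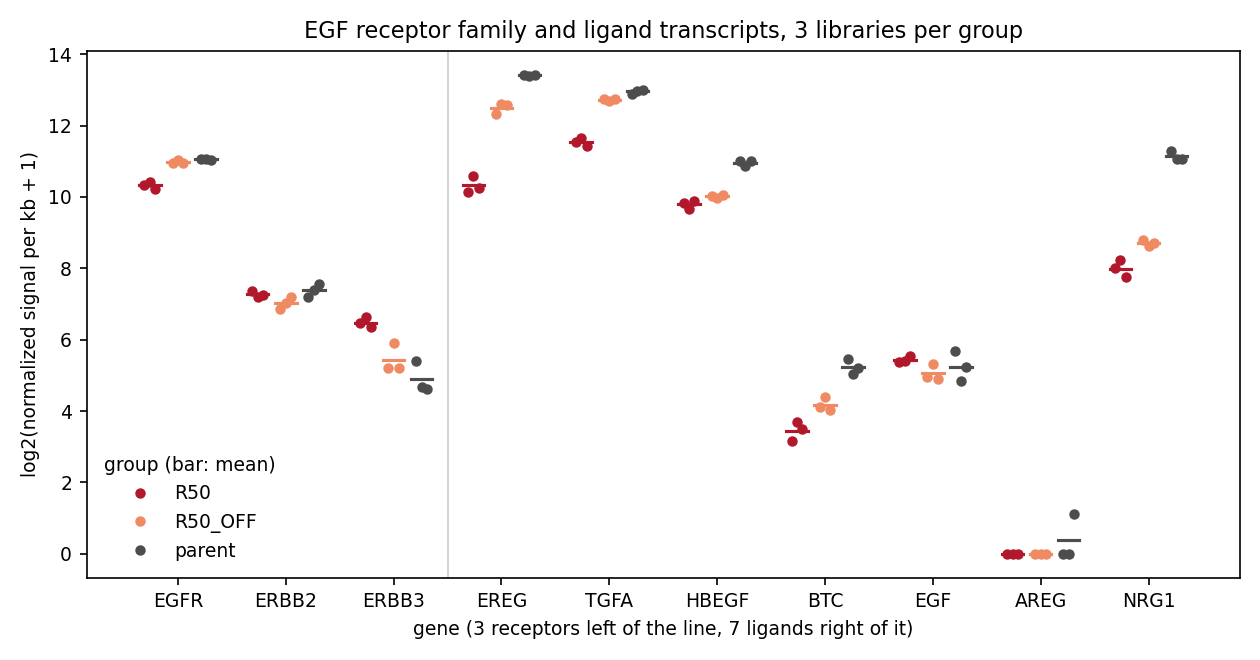
Level of the 10 members in each of 9 libraries, as log2(normalized signal per kb + 1), with R50, R50_OFF and parent cells from left to right within each gene; points are libraries and bars group means. EREG, TGFA, HBEGF, BTC and NRG1 sit lowest in R50 and highest in parent cells, ERBB3 sits highest in R50 cells, and AREG lies at 0 in all libraries but 1.

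Among the receptors, EGFR had the highest level in every group. It measured 1289, 1365 and 1193 in R50 libraries, 1996, 2082 and 1980.4 in R50_OFF libraries and 2158, 2138 and 2094 in parent libraries. The R50 libraries lay far below the others, and the R50_OFF libraries ended just under the lowest parent library. EGFR fell in R50 to 1282 ± 86.4, against 2129.7 ± 32.8 in parent cells, a log2 change of -0.73 (SE 0.054, limma adjusted p = 6.36e-07). In R50_OFF cells it averaged 2019.6 ± 54.6, and the log2 change against parent cells was -0.08, with a 95% interval of -0.20 to 0.04 and an adjusted p of 0.264 in limma. EGFR rose in R50_OFF relative to R50 cells, by 0.66 on the log2 scale (SE 0.054, limma adjusted p = 2.28e-06).

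ERBB2, the partner receptor, measured 164, 146 and 151 in R50 libraries, 116, 130.5 and 145 in R50_OFF libraries and 146, 167 and 188 in parent libraries. The groups lay close together, and R50 overlapped parent cells. The log2 change in R50 against parent cells was -0.11, with a 95% interval of -0.38 to 0.16 (limma adjusted p = 0.446). ERBB2 fell by 0.35 on the log2 scale in R50_OFF against parent cells (SE 0.12, limma adjusted p = 0.0318). That call was lost in 7 of 18 alternatives, with an adjusted p of 0.119 without R50_OFF replicate 1, 0.0673 without R50_OFF replicate 2, 0.0769 without parent replicate 2, 0.126 without parent replicate 3, 0.0548 with no filter, 0.0601 with upper quartile scaling and 0.0522 with only these groups in the fit. Over all 18 alternatives the adjusted p ran from 0.0159 to 0.126. R50_OFF and R50 cells differed by -0.24, with an interval of -0.51 to 0.03 (limma adjusted p = 0.112).

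ERBB3, the neuregulin receptor, was the member that rose in R50 cells. It measured 87.3, 98.2 and 80.2 in R50 libraries, 36.1, 58.7 and 35.9 in R50_OFF libraries and 41.2, 24.5 and 23.6 in parent libraries. Every R50 library lay above every other library, while R50_OFF and parent libraries overlapped. The log2 change in R50 against parent cells was 1.58 (SE 0.25, limma adjusted p = 0.000228), and in R50_OFF against R50 cells ERBB3 fell by 1.04 on the log2 scale (SE 0.25, limma adjusted p = 0.00432). The ERBB3 change in R50_OFF against parent cells was 0.54, with an interval of -0.01 to 1.10 (limma adjusted p = 0.0936), and without parent replicate 1 it was 0.79 and passed, at an adjusted p of 0.0181. These values rest on few reads, 12 to 60 per library.

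EREG encodes epiregulin, a ligand of EGFR and ERBB4, and was the most abundant member in parent cells. It measured 1128, 1522 and 1222 in R50 libraries, 5075, 6235 and 6111 in R50_OFF libraries and 10991, 10717 and 10917 in parent libraries. The groups were far apart, with R50_OFF between the others. The R50 mean was 0.118 of the parent mean on the fitted scale, a log2 change of -3.09 (SE 0.11, limma adjusted p = 1.55e-09). EREG fell by 0.91 in R50_OFF against parent cells on the log2 scale (SE 0.11, limma adjusted p = 3.56e-05), a ratio of 0.532. R50_OFF exceeded R50 cells by a ratio of 4.51, a log2 change of 2.17 (SE 0.11, limma adjusted p = 4.57e-08).

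AREG, whose product amphiregulin also binds EGFR, lay at the other end of the scale. Its values were 0 in all R50 and R50_OFF libraries and in 2 parent libraries, and 1.18, a single read, in parent replicate 3. A count of 3 reads, the approximate upper 95% limit for a count of 0 from counting error alone, corresponds to a value of 2.71 to 3.41 in the libraries at 0, so a change of AREG between groups was not detectable at this depth. A search of hg38 found no other stretch of at least 50 bases with at least 98% identity to the AREG transcript, so reads shared with a near-identical copy on the primary chromosomes were not found. The same search found none for EGFR, ERBB2, HBEGF, TGFA or BTC, and such stretches covered 1.83% of ERBB3, 1.32% of EREG, 0.918% of NRG1 and 0.783% of EGF.

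TGFA encodes transforming growth factor alpha, an EGFR ligand. It measured 2953, 3231 and 2773 in R50 libraries, 6802, 6561 and 6850.3 in R50_OFF libraries and 7577, 8065 and 8213 in parent libraries. R50 stood far below the other groups, and the R50_OFF libraries all lay under the parent libraries. TGFA fell by 1.41 on the log2 scale in R50 against parent cells (SE 0.058, limma adjusted p = 6.18e-09). It fell by 0.24 in R50_OFF against parent cells (SE 0.058, limma adjusted p = 0.00542), and it rose by 1.18 in R50_OFF against R50 cells (SE 0.058, limma adjusted p = 5.36e-08).

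HBEGF encodes the heparin-binding EGF-like growth factor, which binds EGFR and ERBB4. Its values were 915, 807 and 942 in R50 libraries, 1036, 1007 and 1070.1 in R50_OFF libraries and 2063, 1863 and 2060.4 in parent libraries. Both resistant lines lay well below the parent line and close to each other. HBEGF fell by 1.17 on the log2 scale in R50 (SE 0.068, limma adjusted p = 9.54e-08) and fell by 0.94 in R50_OFF cells (SE 0.068, limma adjusted p = 1.23e-06), each against parent cells. R50_OFF exceeded R50 cells by 0.23 (SE 0.068, limma adjusted p = 0.0142), and without R50_OFF replicate 3 by 0.21, at an adjusted p of 0.0513.

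BTC, betacellulin, measured 7.93, 12 and 10.2 in R50 libraries, 16.4, 20 and 15.2 in R50_OFF libraries and 42.6, 32.1 and 35.8 in parent libraries, from 14 to 65 reads. The 3 groups did not overlap. It fell by 1.78 on the log2 scale in R50 (SE 0.24, limma adjusted p = 6.66e-05) and fell by 1.05 in R50_OFF cells (SE 0.24, limma adjusted p = 0.0036), each against parent cells. BTC rose by 0.73 in R50_OFF against R50 cells (SE 0.24, limma adjusted p = 0.0218). The adjusted p of that rise was 0.0718 without R50 replicate 1, 0.0738 without R50_OFF replicate 2, 0.0587 with no filter and 0.0518 with only these groups in the fit, and over 17 alternatives it ran from 0.00537 to 0.0738.

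EGF itself measured 40.7, 41.3 and 45.9 in R50 libraries, 30.3, 39.2 and 28.6 in R50_OFF libraries and 50.3, 27.5 and 36.4 in parent libraries, from 18 to 32 reads. The parent libraries spanned the values of all others. No comparison passed, with log2 changes of 0.20 (95% interval -0.30 to 0.70) in R50 and -0.18 (-0.68 to 0.32) in R50_OFF against parent cells and -0.38 (-0.88 to 0.12) in R50_OFF against R50 cells.

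NRG1 (ENSG00000157168, chr8:31639222-32855666, plus strand) encodes neuregulin 1, a ligand of ERBB3 and ERBB4. It measured 255, 297 and 215 in R50 libraries, 444, 394 and 417 in R50_OFF libraries and 2476, 2158 and 2134 in parent libraries. Both resistant lines were far below the parent line, and R50_OFF lay above R50 without overlap. NRG1 fell by 3.14 on the log2 scale in R50 (SE 0.11, limma adjusted p = 1.79e-09) and fell by 2.43 in R50_OFF cells (SE 0.11, limma adjusted p = 3.8e-08), each against parent cells. It rose by 0.72 in R50_OFF against R50 cells (SE 0.11, limma adjusted p = 0.000216).

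**Figure D2:**
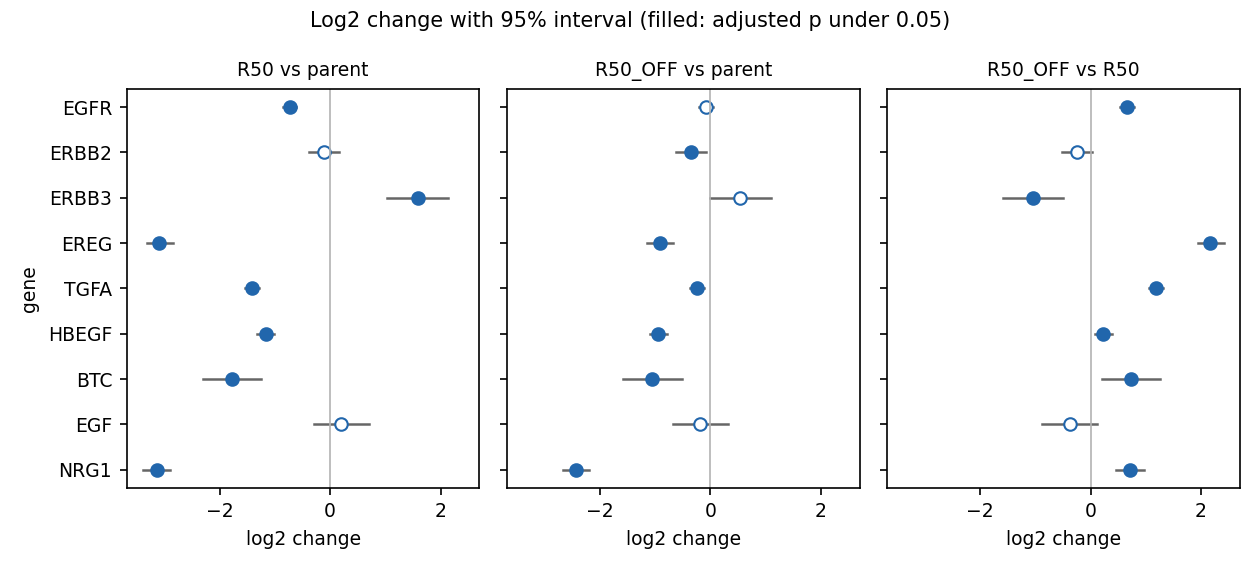
Log2 change of the 9 tested members in R50 against parent, R50_OFF against parent and R50_OFF against R50 cells, on 1 shared axis; points are limma estimates, lines 95% intervals, and filled points passed an adjusted p under 0.05. EREG lies at -3.09 in R50 and at -0.91 in R50_OFF against parent cells, whereas NRG1 lies at -3.14 and -2.43.

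The ligands differed in where R50_OFF cells lay between the other groups. TGFA averaged 6738 ± 155 in R50_OFF and 2986 ± 231 in R50 cells, against 7951 ± 333 in parent cells, so R50_OFF was near the parent level. NRG1 averaged 418 ± 25.1 in R50_OFF and 256 ± 41 in R50 cells, against 2256 ± 191 in parent cells, so R50_OFF was near R50. EREG, at 5807 ± 637 in R50_OFF and 1291 ± 206 in R50 cells against 10875 ± 142 in parent cells, lay between these cases. HBEGF, at 1038 ± 31.5 in R50_OFF and 888 ± 71.6 in R50 cells against 1995 ± 115 in parent cells, was placed like NRG1. Whether the ligands differ from each other in this respect was not tested.

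Summed over the 7 ligands, the signal per kilobase was 5473 ± 382 in R50, 14050.5 ± 573 in R50_OFF and 23153 ± 270.3 in parent cells. EREG made up 23.5% ± 2.23 of that sum in R50, 41.3% ± 3.04 in R50_OFF and 47.0% ± 0.367 in parent cells. TGFA made up 54.5% ± 1.24 in R50, 48.0% ± 2.45 in R50_OFF and 34.3% ± 1.46 in parent cells. HBEGF held 16.3% ± 2.36 in R50, 7.39% ± 0.331 in R50_OFF and 8.62% ± 0.406 in parent cells. NRG1 held 4.66% ± 0.467 in R50, 2.98% ± 0.291 in R50_OFF and 9.74% ± 0.821 in parent cells. BTC, EGF and AREG together stayed a small remainder, each under 1% in every group. So TGFA led in both resistant lines and EREG in the parent line.

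The length used for scaling moves these shares. The table divides by the median length over a gene's transcripts, which traces to 1290 bases for EREG, 812 for TGFA and 1230 for HBEGF. Their MANE Select transcripts, the reference isoforms, have 4615, 4117 and 2358 bases. Scaled by MANE Select length, a choice made after seeing the data, the summed ligand level was 1463 ± 67.7 in R50, 3571 ± 167 in R50_OFF and 6021 ± 98.2 in parent cells. EREG then made up 24.6% in R50, 45.4% in R50_OFF and 50.5% in parent cells, TGFA 40.2%, 37.3% and 26.1%, and HBEGF 31.8%, 15.2% and 17.3%. On that scale EREG, not TGFA, led in R50_OFF cells, and TGFA still led in R50 cells. Fold changes between groups do not depend on the length, apart from the pseudocount.

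**Figure D3:**
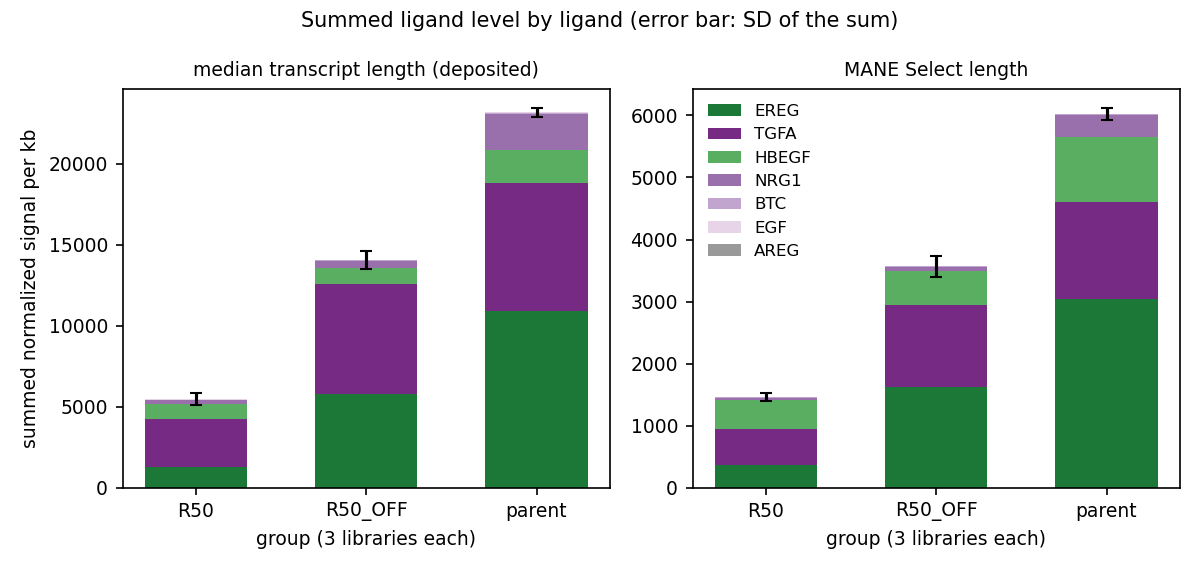
Summed level of the 7 ligands in R50, R50_OFF and parent cells, split by ligand, per median transcript length as deposited (left) and per MANE Select length (right); error bars are the SD of the sum over 3 libraries. The sum is lowest in R50 and highest in parent cells on both scales, and HBEGF takes a larger share on the right.

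The order of the 10 levels, per kilobase as deposited, was the same in R50 and R50_OFF cells and differed in parent cells. In both resistant lines it ran TGFA, EREG, EGFR, HBEGF, NRG1, ERBB2, ERBB3, EGF, BTC and AREG. Of the neighbours in that order, EREG and EGFR overlapped in R50 cells, and ERBB3 and EGF in R50_OFF cells. In parent cells it ran EREG, TGFA, NRG1, EGFR, HBEGF, ERBB2, EGF, BTC, ERBB3 and AREG. There NRG1 overlapped EGFR, EGF overlapped BTC, and BTC overlapped ERBB3. Per MANE Select length HBEGF moved above EGFR in all 3 groups, and the resistant lines no longer shared an order. On that scale R50 cells began with TGFA, HBEGF, EREG and EGFR, where HBEGF and EREG overlapped. Both R50_OFF and parent cells began with EREG, TGFA, HBEGF and EGFR. For ERBB3 the deposited values trace to a length of 574 bases, whereas GENCODE 44 gives a median of 2382, so its level relative to other genes is uncertain.

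Of 5 further members of the family, only NRG2 and EPGN reached the minimum level. NRG2, a neuregulin, averaged 47.3 ± 2.57 in R50, 124 ± 4.18 in R50_OFF and 142 ± 15.1 in parent cells and fell by 1.56 on the log2 scale in R50 against parent cells (limma adjusted p = 5.78e-07). EPGN, the EGFR ligand epigen, averaged 28.9 ± 8.82 in R50, 96.3 ± 20.9 in R50_OFF and 73 ± 9 in parent cells and fell by 1.34 in R50 against parent cells (limma adjusted p = 0.000332). Neither passed in R50_OFF against parent cells, where the log2 changes were -0.19 for NRG2 and 0.38 for EPGN, with adjusted p of 0.194 and 0.18. ERBB4, the receptor for neuregulins and several EGFR ligands, averaged 0 in R50, 1.37 in R50_OFF and 0.506 in parent cells, and NRG3 and NRG4 averaged 1.09 or less in every group.

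Most genes of ligand release from the membrane that passed were lower in the resistant lines. Among all tested genes 31.7% fell and 31.6% rose in R50, and 25.7% fell and 26.3% rose in R50_OFF cells. Of 9 genes that carry out or control this release, 5 fell and 2 rose in R50, and 5 fell and 2 rose in R50_OFF cells, each against parent cells, with a median log2 change of -0.31 in both. The rises were ADAM12, a metalloproteinase, at 0.42 in R50 cells, FRMD8, which stabilizes the iRhom complex of ADAM17, at 0.33 in R50_OFF cells, and TIMP3 in both lines. TIMP3, an inhibitor of metalloproteinases that includes ADAM17 among its targets, averaged 4865 ± 297 in R50 cells, lay at 1507 to 1530.5 in R50_OFF libraries and averaged 571 ± 78.3 in parent cells. Its log2 change against parent cells was 3.10 in R50 (limma adjusted p = 4.75e-10) and 1.42 in R50_OFF cells (limma adjusted p = 4.29e-07). RHBDF2 and RHBDF1 encode the iRhoms, which carry ADAM17 to the cell surface. RHBDF2 averaged 469 ± 46.8 in R50, 763 ± 65.9 in R50_OFF and 1286 ± 83.3 in parent cells, and fell by 1.45 in R50 and fell by 0.75 in R50_OFF cells. RHBDF1 fell by 1.02 in R50 and fell by 0.73 in R50_OFF cells, and the metalloproteinase gene ADAM9 had log2 changes of -1.02 and -0.78. ADAM17 itself fell by 0.31 in each line against parent cells, with limma adjusted p of 0.000925 in R50 and 0.00109 in R50_OFF cells.

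Genes that the ERK pathway is known to induce, many of them its own inhibitors, were mostly lower in the resistant lines. Of 19, 17 fell and 1 rose in R50 against parent cells, with a median log2 change of -0.94, where 31.7% of all tested genes fell. In R50_OFF against parent cells 13 fell and 3 rose, with a median of -0.39, where 25.7% of all tested genes fell. In R50_OFF against R50 cells 13 rose and 2 fell, with a median of 0.73, where 30.2% of all tested genes rose. The falls there were EPHA2, at -0.70, and MYC, at -0.27. Against parent cells EPHA2 changed by -0.71 in R50 and by -1.41 in R50_OFF cells. Over the alternatives the number that fell in R50 ran from 16 to 18 and in R50_OFF, against parent cells, from 10 to 14.

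SPRY4, a Sprouty inhibitor of receptor signalling, averaged 145 ± 19.5 in R50, 755 ± 33.3 in R50_OFF and 1477 ± 36.2 in parent cells. Its log2 change against parent cells was -3.35 in R50 (limma adjusted p = 2.43e-10) and -0.97 in R50_OFF cells (limma adjusted p = 6.55e-06). DUSP6, a phosphatase of ERK, averaged 627 ± 70.5 in R50, 2244 ± 86.5 in R50_OFF and 4257 ± 341 in parent cells, with log2 changes of -2.76 and -0.92 in R50 and R50_OFF against parent cells. SPRY1 was low throughout, at 6.47 ± 3.03 in R50, 14.7 ± 3.74 in R50_OFF and 31.1 ± 5.08 in parent cells. The gene of this ERK list that rose in R50 cells was EPHA4, an ephrin receptor, at 288 ± 17.2 in R50 and 286 ± 29.6 in R50_OFF cells against 174 ± 36.6 in parent cells. ETV4, an ETS transcription factor, and SPRED2, an inhibitor of RAS signalling, fell in R50 and rose in R50_OFF cells, each against parent cells, with log2 changes of -0.52 and 0.45 for ETV4 and of -0.87 and 0.20 for SPRED2. The activity of the pathway was not measured.

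**Figure D4:**
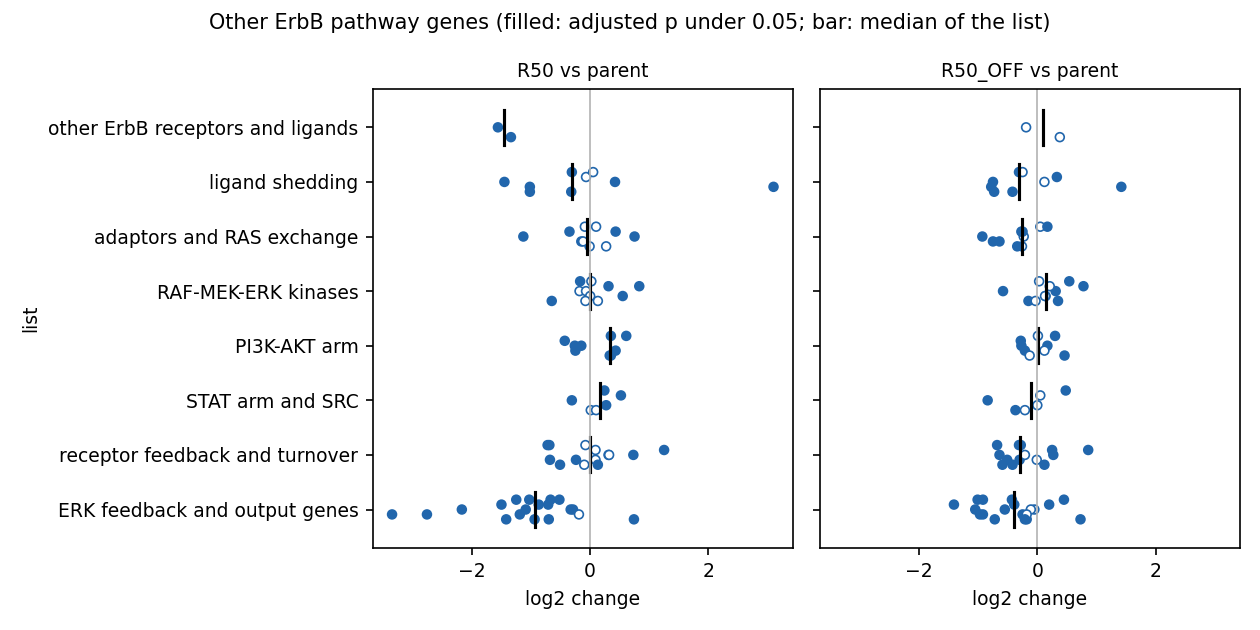
Log2 change of the tested genes in 8 lists of the ErbB pathway, in R50 (left) and R50_OFF (right) against parent cells; each point is a gene, filled points passed an adjusted p under 0.05, and the bar is the median of the list. The list of ERK feedback and output genes has its median at -0.94 in R50 and at -0.39 in R50_OFF cells.

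The signalling proteins between receptor and nucleus showed no shared direction in R50 cells. Of 10 adaptor and RAS exchange genes, 2 rose and 3 fell in R50, and 1 rose and 6 fell in R50_OFF cells, each against parent cells. Among all tested genes 31.6% rose and 31.7% fell in R50, and 26.3% rose and 25.7% fell in R50_OFF cells. RASA1, a GTPase-activating protein for RAS, averaged 873 ± 42.5 in R50, 998 ± 31.1 in R50_OFF and 1909 ± 46.4 in parent cells and changed by -1.13 in R50 and -0.93 in R50_OFF cells on the log2 scale, past the threshold in both. Of 11 RAF-MEK-ERK genes, 3 rose and 2 fell in R50, and 4 rose and 2 fell in R50_OFF cells. Among them MAP2K1, which encodes MEK1, fell by 0.65 in R50 and fell by 0.15 in R50_OFF cells, and the scaffold KSR1 rose by 0.83 and by 0.78.

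Of 9 tested PI3K-AKT genes, 5 rose and 4 fell in R50, and 3 rose and 3 fell in R50_OFF cells, each against parent cells. Among all tested genes 31.6% rose and 31.7% fell in R50, and 26.3% rose and 25.7% fell in R50_OFF cells. PIK3R1, the regulatory subunit of PI3K, averaged 1308 ± 128 in R50, 857 ± 20 in R50_OFF and 853 ± 21.6 in parent cells and rose by 0.61 in R50 cells. AKT1 rose by 0.35 in R50 and by 0.46 in R50_OFF cells. Of 6 tested STAT, JAK and SRC genes, 3 rose and 1 fell in R50, and 1 rose and 2 fell in R50_OFF cells. STAT5B rose by 0.52 in R50 cells, and SRC rose by 0.24 in R50 and by 0.48 in R50_OFF cells.

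Of 14 genes that inhibit or turn over the receptors, 4 rose and 5 fell in R50, and 4 rose and 8 fell in R50_OFF cells, each against parent cells. Among all tested genes 31.6% rose and 31.7% fell in R50, and 26.3% rose and 25.7% fell in R50_OFF cells. PTPRJ, a receptor phosphatase that acts on EGFR, averaged 1776 ± 23.9 in R50, 885 ± 17.1 in R50_OFF and 747 ± 45.6 in parent cells, with log2 changes of 1.25 and 0.25. ERRFI1, whose product MIG6 binds and inhibits the EGFR kinase, averaged 13132 ± 697 in R50, 17022 ± 379.6 in R50_OFF and 21016 ± 1798 in parent cells and fell by 0.68 in R50 and fell by 0.30 in R50_OFF cells. LRIG1, which promotes receptor degradation, averaged 6002 ± 165 in R50_OFF cells against 3305 ± 112 in parent cells, a log2 change of 0.86 (limma adjusted p = 7.52e-08). In R50 cells LRIG1 averaged 3528 ± 57.7, a change of 0.09 against parent cells with an adjusted p of 0.0746 in limma. CBLB, a ubiquitin ligase for activated receptors, rose by 0.73 in R50 and fell by 0.64 in R50_OFF cells.

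Patterns most like those of EGFR, EREG and HBEGF were sought by Pearson's r over the 9 libraries on the log2 scale, among 16412 genes. The 9 libraries form 3 groups, so r mostly follows the 3 group means, and many genes share any such pattern. For EGFR the close patterns included UBASH3B at 0.9981, HMCN2 at 0.9973, RRM2 at 0.9962 and NEMP2 at 0.9957, and 730 genes exceeded 0.95. For EREG they were CKAP2L at 0.9989, KIF5C at 0.9989, BACE2 at 0.9981, NRP1 at 0.997 and TNFAIP8L3 at 0.997, and 886 genes exceeded 0.95. For HBEGF they were USP36 at 0.9958, ESPL1 at 0.9957, TAF1C at 0.9942, VWA5A at 0.9927 and GPRC5A at 0.9926, and 468 genes exceeded 0.95.

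The genes around EREG on chromosome 4 were mostly lower in R50 cells as well. Of 9 tested genes within 1 Mb, 7 fell and 2 rose in R50 against parent cells, with a median log2 change of -1.34, against -0.27 over the 603 tested genes of chromosome 4. In R50_OFF against parent cells 4 rose and 3 fell, with a median of 0.38, and in R50_OFF against R50 cells 8 rose, with a median of 1.32, and PARM1 did not pass, at -0.30 (limma adjusted p = 0.296). Against parent cells 31.7% of all tested genes fell and 31.6% rose in R50, and 25.7% fell and 26.3% rose in R50_OFF cells. In R50_OFF against R50 cells 30.2% of all tested genes rose. The nearest tested gene was EPGN, 56.7 kb away, and the member BTC is also among the 9. The falls of EPGN and BTC in R50 cells are those given above. MTHFD2L, a mitochondrial folate enzyme 251.0 kb away, averaged 520.1 ± 60.9 in R50, 1296 ± 136 in R50_OFF and 857 ± 55.9 in parent cells, a log2 change of -0.72 in R50 and of 0.59 in R50_OFF against parent cells. The chemokine genes CXCL2 and CXCL3 had log2 changes of -2.51 and -2.65 in R50 and of -1.13 and -0.83 in R50_OFF against parent cells, all past the threshold.

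CXCL8, the chemokine interleukin 8, whose start lies at -624.6 kb from that of EREG, averaged 145 ± 10.5 in R50, 2191 ± 217 in R50_OFF and 2606 ± 456 in parent cells. It fell by 4.14 in R50 against parent cells (limma adjusted p = 5.57e-10), whereas its change in R50_OFF cells was -0.24 (limma adjusted p = 0.126). CXCL1, another chemokine gene of the cluster, went the other way, at 31.5 ± 6.07 in R50 and 60.1 ± 20.5 in R50_OFF cells against 13.9 ± 0.355 in parent cells, with log2 changes of 1.11 and 1.97. It and CXCL8 were named after their values were seen. Among all tested genes 31.7% fell and 31.6% rose in R50 against parent cells. Around EGFR, 2 of 8 tested genes fell and 1 rose in R50 against parent cells, with a median of 0.04, against -0.20 over the 798 tested genes of chromosome 7. There SEC61G, the nearest, fell by 0.41 in R50 cells and VOPP1 fell by 0.57. The other 2 of the 4 nearest did not pass in R50 cells, LANCL2 at 0.03 (limma adjusted p = 0.637) and FKBP9P1 at 0.04 (limma adjusted p = 0.864).

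**Figure D5:**
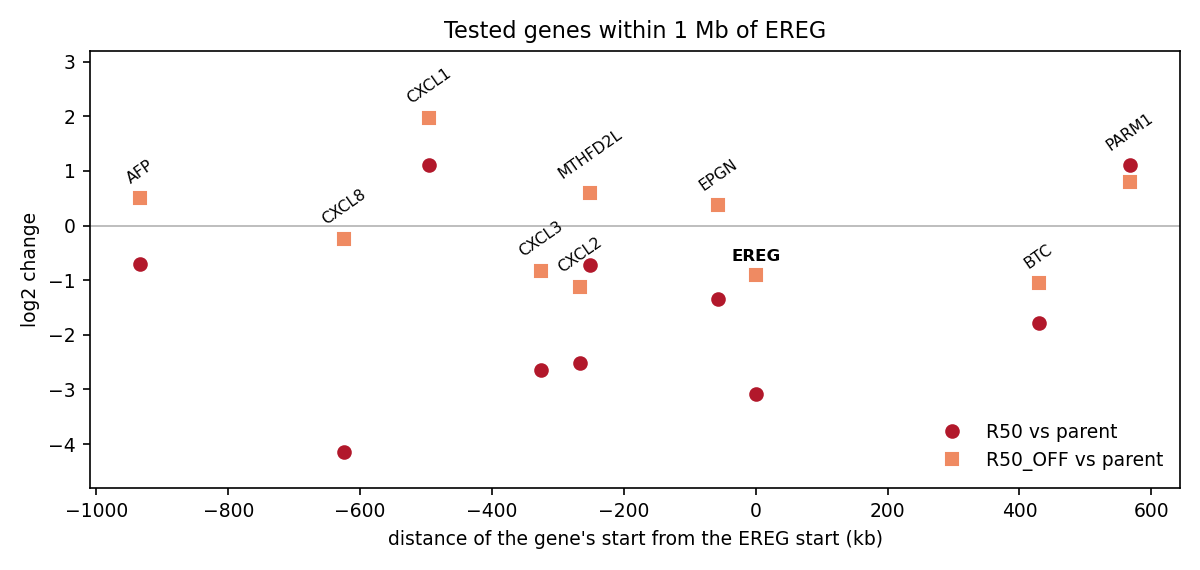
Log2 change of the 9 tested genes within 1 Mb of EREG, and of EREG, against the distance of each start from the EREG start in kb; circles are R50 and squares R50_OFF, both against parent cells. CXCL8 at -4.14 and EREG at -3.09 are the lowest R50 points, and CXCL1 and PARM1 lie above 0 in both lines.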

How the data were processed

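Sequencing of poly-A RNA in 9 stranded libraries gave single-end reads of 50 bases, per the labels' protocols. The tool bcl2fastq 2.17.1.14 and the build hg38 stand in the submitters' processing notes. Aligner, counter, strand setting and annotation were not given in the sources used here. The authors deposited a linear signal, normalized between libraries and divided by median transcript length in kilobases, per the file headers. Values could be traced to whole reads for 100.0% of genes, within a relative tolerance of 5.5e-15. Groups came from sample titles.

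Genes that reached 10 in 3 or more libraries were tested with limma 3.58.1 (R 4.3.3, empirical Bayes trend) on log2(value + 1), two-sided, all 9 libraries in 1 fit with 6 residual degrees of freedom. Benjamini-Hochberg adjustment ran over all 16456 tested genes. The pseudocount understates changes of low genes. The fit was also run on simulated data with far fewer changed genes than passed here. That run does not give its error rate in these data. Symbols matched 33137 identifiers (99.62%), and coordinates and MANE Select lengths came from GENCODE 44. Copies were searched with blastn 2.17.0, and promoters are RefSeq sequences. Without the strand setting, reads of overlapping antisense genes cannot be told apart.

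The members, lists and tests were chosen with earlier results of these data known. The text names all members, up to 3 passing genes per direction and list, the 5 closest patterns for 3 members, and the 4 nearest tested neighbours of EREG and EGFR. Results of some genes under that rule are left out. Genes outside it, among them ADAM17, were named after their values were seen. Alternatives were other pseudocounts, filters and scalings, voom on traced reads, fits of only the groups compared, the replicate block and each library left out. Glioma stem-like cells were not analysed here.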

Additional observations from a re-analysis of the deposited data

Results flagged for a closer look

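Each of 4 pathway genes passed in opposite directions in R50 and R50_OFF cells, both against the same parent libraries, and the difference between the lines was tested directly. CBLB averaged 119.9 ± 2.97 in R50_OFF and 312 ± 16.7 in R50 cells, with 187 ± 9.03 in parent cells, and R50_OFF differed from R50 by -1.37 on the log2 scale (limma adjusted p = 1.84e-07). SPRED2 averaged 4674 ± 108 in R50_OFF and 2222 ± 115 in R50 cells, with 4056 ± 47.8 in parent cells, a difference of 1.07 (limma adjusted p = 1.99e-08). ETV4 averaged 1058 ± 37.9 in R50_OFF and 539 ± 39.3 in R50 cells, with 772 ± 9.39 in parent cells, a difference of 0.97 (limma adjusted p = 3.2e-07). SOS2, a RAS exchange factor, averaged 323 ± 12.8 in R50_OFF and 520.3 ± 38.8 in R50 cells, with 386 ± 21.3 in parent cells, a difference of -0.68 (limma adjusted p = 2.03e-05). The fall of SOS2 in R50_OFF against parent cells did not pass without R50_OFF replicate 3 (adjusted p = 0.0572), parent replicate 1 (0.062) or parent replicate 2 (0.0539).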

How the results depend on the processing

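The number of members that passed ran from 6 to 7 in R50 and from 5 to 7 in R50_OFF against parent cells, and from 6 to 7 in R50_OFF against R50 cells, over all alternatives. Of the 27 member changes, 21 kept direction and side of the threshold throughout, among them every EGFR, EREG, TGFA and NRG1 change. Besides the ERBB2, ERBB3, HBEGF and BTC exceptions given with those genes, EGF changed sign without passing. Its change in R50 against parent cells was -0.13 with quantile normalization and -0.01 to 0.42 with 1 library left out, and in R50_OFF against parent cells -0.39 to 0.03 with 1 library left out. The cause was not tested. For pathway genes, only changes that passed in the main fit were followed, in genes picked for large changes, so none could gain a call. Of these 105 changes, 90 kept their call throughout, and the others, which include NF1, GAB2 and JAK2 in R50 cells, lost it under at least 1 alternative. Upper quartile scaling shifted the median of all genes to 0.106 in R50 against parent cells. Same-numbered replicates correlated by -0.021 to 0.1 in their deviations, and differently numbered ones by -0.082 to 0.044. Such weak correlations cannot decide whether the numbers pair the samples. With the replicate block 10653, 8811 and 10046 genes passed in the 3 comparisons, against 10422, 8565 and 9785 without it, and 7, 6 and 7 members in both. Depth limits ERBB3, BTC and EGF, at 12 to 65 reads per library, and AREG.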

Other observations

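Among all tested genes 31.6% rose and 31.7% fell in R50, and 26.3% rose and 25.7% fell in R50_OFF, each against parent cells. Around HBEGF, 32 of 51 tested genes within 1 Mb rose and 5 fell in R50 against parent cells, with a median log2 change of 0.57, against 0.02 over the 788 tested genes of chromosome 5, while HBEGF itself fell. In R50_OFF against parent cells 24 of these neighbours rose and 2 fell, with a median of 0.32. Of the 4 nearest neighbours of HBEGF, ANKHD1-DT rose by 1.47 in R50 against parent cells (limma adjusted p = 0.00119). PFDN1, ANKHD1 and CYSTM1 did not pass there (limma adjusted p = 0.935, 0.578 and 0.953). Around TGFA, 15 of 24 tested neighbours fell and 4 rose in R50 against parent cells, with a median of -0.35, against -0.34 over the 1114 tested genes of chromosome 2. Of 6 tested neighbours of NRG1, 4 fell and 1 rose in R50 against parent cells, with a median of -0.22, against 0.03 over the 584 tested genes of chromosome 8.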
